A study of Mus musculus with 4 samples.

Results

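Among the interstitial cells of the mouse heart, 297 of 38910 cells carried the RNA of dividing cells. They were chosen by a fixed rule on whole counts of unique molecular identifiers (UMIs, 1 for each captured RNA molecule). Cells needed 500 or more UMIs in 250 or more genes, with mitochondrial UMIs making up 15% or less, and 3 or more UMIs in all of Mki67, Top2a, Birc5 and Cdk1. These cells are called cycling here, 0.763% of the cells kept (95% exact binomial interval, 0.679 to 0.855%). The 37865 cells with no UMI of the 4 genes are called non-cycling, and the 748 cells with 1 or 2 such UMIs enter neither group. Lineages were read from UMIs as well: Pecam1 and Cdh5 at 2 or more in all for endothelial cells, Pdgfra at 1 or more for fibroblasts, and Ptprc at 1 or more for immune cells.

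The cells came from 4 heart samples, 2 labelled stroke and 2 labelled control, 1 month later and all of the strain Ccr2creERT2-Ai14. In that strain a Cre recombinase that a drug switches on is driven by Ccr2, a chemokine receptor gene of monocytes, and can turn on a tdTomato reporter in the cells that use that gene and in their progeny. The sources used here do not give the time of induction. Hearts were digested for 30 min, cardiomyocytes were held back by a strainer, red cells were lysed, dead cells were removed, and live nucleated cells were sorted. The deposited counts hold 4 numbered libraries that no label ties to a sample, so stroke and control were not compared and all cells are treated as 1 pooled sample. No p-value is given, each interval covers counting error only, and values per library are a description.

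A dividing cell copies its DNA in S phase and then builds a spindle and separates its chromosomes in mitosis. Copying needs the MCM helicase, which E2F factors help to switch on, whereas the kinases, motor proteins and kinetochore parts of mitosis are switched on later, by the DREAM complex being replaced by MYB and FOXM1 at promoters that hold a cell cycle homology region (CHR), often beside CCAAT boxes. Most endothelial cells and fibroblasts of the adult heart rest outside the cycle, and resident macrophages are known to renew themselves by division in place.

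The 4 genes of the rule do different jobs. Mki67 coats mitotic chromosomes, Top2a untangles DNA, Birc5 (survivin) belongs to the complex that corrects the attachment of chromosomes to the spindle, and Cdk1 is the kinase that starts mitosis. The 120 bases before their annotated start sites are shown, with those of the mitotic cyclin Ccnb1, because the cells were found by these genes. Sequences are from RefSeq on GRCm38.p6, 5′ to 3′ on each gene's own strand, and capitals mark the CHR letters TTTGAA or TTTAAA and the CCAAT box on either strand. They lie at chr7:135716380-135716499 (minus strand) for Mki67, at chr11:99024190-99024309 (minus) for Top2a, at chr11:117849117-117849236 (plus) for Birc5, at chr10:69352913-69353032 (minus) for Cdk1 and at chr13:100786487-100786606 (minus) for Ccnb1.
Mki67: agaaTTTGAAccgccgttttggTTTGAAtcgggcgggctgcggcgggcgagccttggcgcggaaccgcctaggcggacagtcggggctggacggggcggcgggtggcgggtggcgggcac
Top2a: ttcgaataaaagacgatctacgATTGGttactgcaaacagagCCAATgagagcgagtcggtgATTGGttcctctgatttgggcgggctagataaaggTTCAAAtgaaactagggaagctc
Birc5: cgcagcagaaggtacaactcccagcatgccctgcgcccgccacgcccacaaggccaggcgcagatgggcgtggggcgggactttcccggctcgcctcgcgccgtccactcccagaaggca
Cdk1: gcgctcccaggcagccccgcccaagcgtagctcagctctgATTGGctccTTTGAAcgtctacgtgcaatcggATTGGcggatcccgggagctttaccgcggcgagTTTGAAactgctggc
Ccnb1: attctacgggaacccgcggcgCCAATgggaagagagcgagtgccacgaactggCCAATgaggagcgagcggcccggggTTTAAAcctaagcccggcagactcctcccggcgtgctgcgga

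In the 250 bases before the start site, CHR letters were found for all 4 rule genes and a CCAAT box for 3 of them. Over all 27025 genes with such a window, 28.1% held CHR letters, 37.5% held a CCAAT box and 10.1% held both. Of the 30 genes in the list of spindle, kinetochore and cytokinesis genes, 24 were matched to a window, and 11 of these (45.8%) held CHR letters, 17 (70.8%) a CCAAT box and 10 (41.7%) both. Of 18 matched genes in the list of origin licensing and replication fork genes, 4 (22.2%) held CHR letters, 13 (72.2%) a CCAAT box, 3 (16.7%) both and 7 (38.9%) an E2F site. The CCAAT shares of the 2 lists were thus close, and no difference between the lists was tested. An E2F site was searched as TTTCCCGC, TTTGGCGC, TTTGCCGC or TTTCGCGC on either strand, and was found for 1 spindle gene (4.17%) and for 2.16% of all genes. A match of letters is a description of the sequence and not a measured binding site.

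Most cycling cells carried more than a single gene of the rule. Mki67 had UMIs in 274 of the 297 cells, Top2a in 254, Birc5 in 175 and Cdk1 in 162, and together they held 87.7% of all rule UMIs in the kept cells. The label was then checked on 118 other cell cycle genes that the rule did not use. Their summed level was 2959 CPM (the usual scaling of UMI counts to the total of the cells) in cells with a rule sum of 0, 4006 at a sum of 1 and 5255 at a sum of 2, just outside the threshold. It was 8043 CPM at a sum of 3, just inside, then 9418 at 4, 13105 at 5 to 9, 23405 at 10 to 19 and 31777 at 20 or more. The level climbed at each step, and between neighbouring single sums the step at the threshold, 5255 CPM at 2 and 8043 CPM at 3, was the largest. The 30 replication genes were at 858 CPM at a sum of 2 and at 1766 CPM at 3. The 39 mitosis genes among them climbed to 13940 CPM in the top group, against 734 CPM at a sum of 0. The 30 replication genes were at 3990 CPM at sums of 10 to 19 and at 2921 CPM at 20 or more, so their highest value came before that of the mitosis genes.

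**Figure D1:**
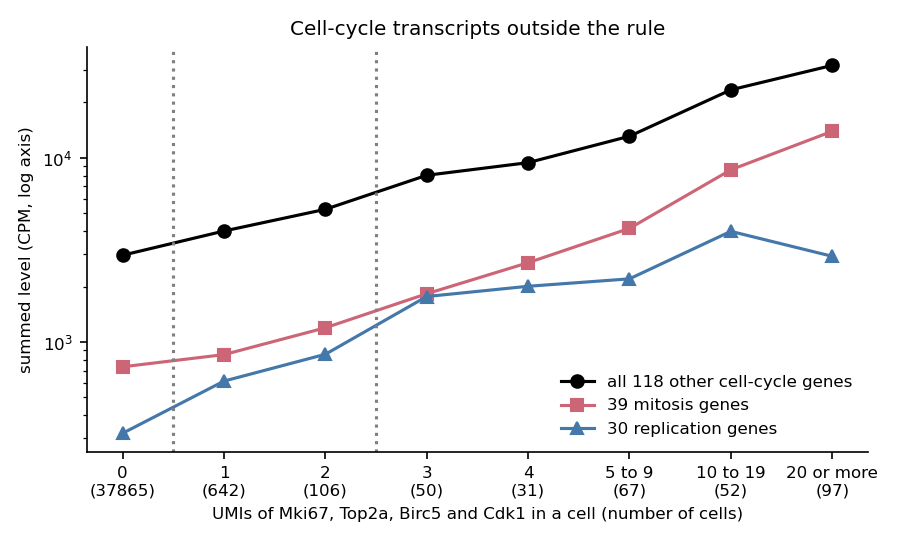
Level of 118 other cell cycle genes, and of the 39 mitosis and 30 replication genes among them, in CPM (log axis), for cells grouped by the UMI sum of the 4 rule genes. All 118 together reach 31777 CPM at a sum of 20 or more against 2959 CPM at a sum of 0, and the replication genes are lower in the last group than in the one before it.

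The libraries did not hold equal shares of cycling cells. Cycling cells were 73 of 9840 in library 1 (0.742%), 76 of 9860 in library 2 (0.771%), 119 of 8813 in library 3 (1.35%) and 29 of 10397 in library 4 (0.279%). Library 3 also stood apart in Xist, the RNA that silences an X chromosome, at 0.0641 CPM against 536 to 593 CPM in the others. Libraries shared 161 barcode sequences, and no 2 cycling cells shared any. Cycling cells were deeper, with a median of 7853 UMIs against 3002 UMIs in non-cycling cells, and a doublet caller marked 12 of the 297. Comparisons are therefore also given against non-cycling cells of the same UMI range, those between the lower and the upper quartile of the cycling cells' UMIs. This narrowed the gap without closing it: the medians were 5712.5 UMIs in cycling cells against 4784 in those kept for endothelial cells, and 9787 against 8267 for macrophage-like cells.

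Among cells that met 1 criterion alone, immune cells cycled most, endothelial cells less and fibroblasts least. Of 3708 cells that met only the immune criterion, 125 were cycling, or 3.37% (2.81 to 4.0%). Of 18976 endothelial cells it was 112, or 0.590% (0.486 to 0.710%), and of 6480 fibroblasts it was 3, or 0.0463% (0.00955 to 0.135%). Cells that also met another criterion are left out of these shares. With them, 16 of 7667 Pdgfra cells were cycling, or 0.209% (0.119 to 0.339%). By the same count it was 0.721% of endothelial and 3.05% of immune cells. In libraries 1 to 4 the immune share was 6.43, 2.41, 3.97 and 1.66%, and the endothelial share was 0.497, 0.706, 0.934 and 0.224%. The immune share was the higher in every library. Immune cells were deeper, with a median of 4460 UMIs against 2486 in endothelial cells, so each cell was also thinned to 1000 UMIs and both criteria were read again. The immune share was then 0.849% (25 of 2944), the endothelial share 0.243% (27 of 11115, 0.16 to 0.353%) and the fibroblast share 0.0818% (2 of 2445, 0.00991 to 0.295%). The order was the same, but the endothelial and fibroblast intervals overlapped. Without library 2, which held 2 of the 3 cycling fibroblasts, the unthinned fibroblast share was 0.0204%.

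Counted by number rather than by share, immune cells were 42.1% of all cycling cells and endothelial cells 37.7%. Fibroblasts were 1.01%, although they were 16.9% of the non-cycling cells. A further 43 cycling cells (14.5%) met more than 1 criterion and 14 (4.71%) met none. Fibroblasts were deep cells, with a median of 6624.5 UMIs in the non-cycling ones against 2469 UMIs in non-cycling endothelial cells.

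**Figure D2:**
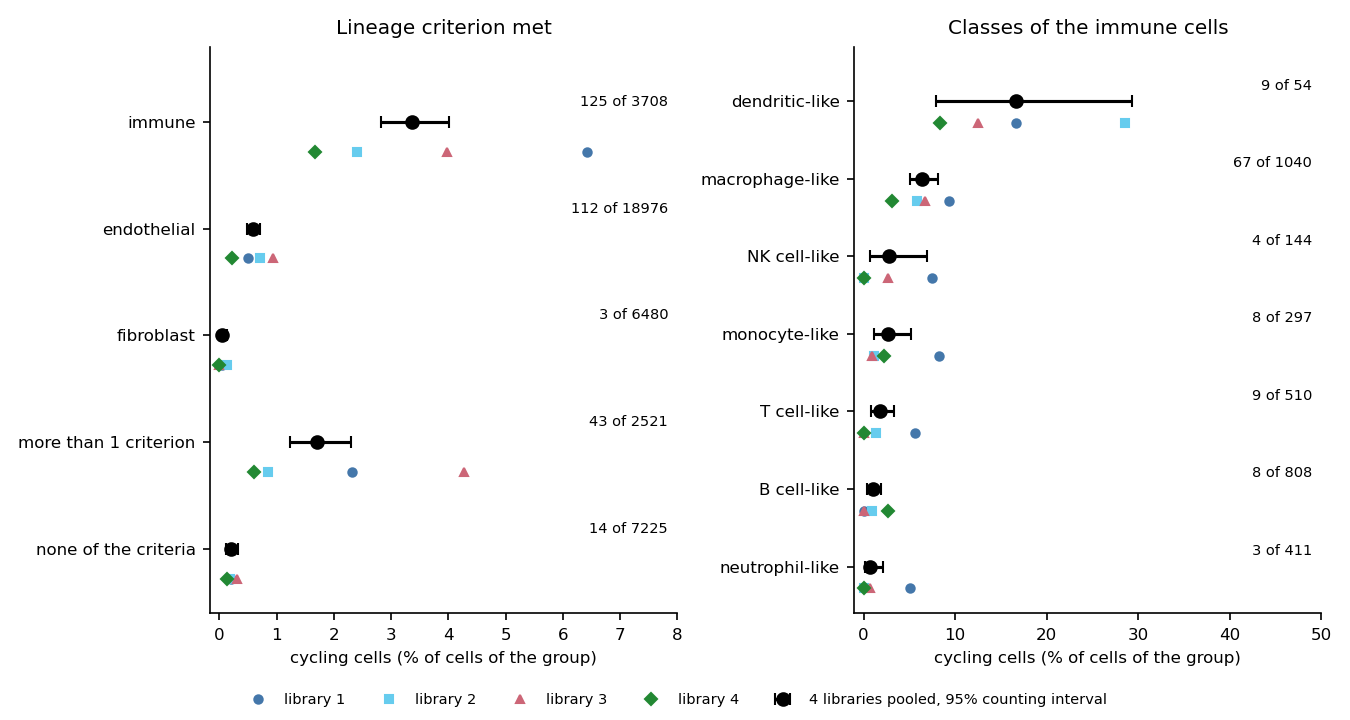
Cycling cells in percent of the cells of each group, by lineage criterion (left) and by class of the immune cells (right); black points pool the 4 libraries with the 95% exact binomial interval, and coloured points are single libraries. Among cells of 1 criterion alone, the immune share is 3.37%, the endothelial share 0.590% and the fibroblast share 0.0463%, and macrophage-like cells reach 6.44%.

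Immune cells were given a class from the markers they held, at least 2 of a class's markers and more than of any other class. Such a class is a range on a score, not a cell type, and the names are written as likenesses. Macrophage-like cells held 67 of the 125 cycling immune cells, and 6.44% of them cycled (67 of 1040, 5.03 to 8.11%). The share was 9.35, 5.83, 6.73 and 3.13% in libraries 1 to 4, and 1 of the 67 cells lay within 1 marker of another class. Dendritic-like cells had a share of 16.7% on few cells (9 of 54, 7.92 to 29.3%), with 1 to 4 cycling cells in each library. Depth differed between classes, and a rule on UMI sums depends on it. The median was 9764.5 UMIs in dendritic-like, 5889 in monocyte-like and 5688.5 in macrophage-like cells. It was 3649.5 UMIs in B cell-like and 2976 in neutrophil-like cells. Classes were not thinned, so their order at equal depth was not tested. The 9 cycling dendritic-like cells carried Flt3, the growth factor receptor of dendritic cells, at 234 CPM against 240 CPM in 33 non-cycling ones. Xcr1, a receptor of cross-presenting dendritic cells, was at 220 CPM against 226 CPM. Both genes are markers of the class, so their levels in both groups were set in part by the choice of cells.

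The other classes of more than 1 cell had lower shares. They were 2.78% for NK cell-like cells (4 of 144), 2.69% for monocyte-like cells (8 of 297), 1.76% for T cell-like cells (9 of 510), 0.99% for B cell-like cells (8 of 808) 0.952% for ILC2-like cells (1 of 105) and 0.730% for neutrophil-like cells (3 of 411). No cycling cell was found among 12 mast cell-like or basophil-like and 6 plasma cell-like cells, where the intervals reach up to 26.5% and 45.9%. Each rests on fewer than 10 cycling cells. Of the 9 cycling T cell-like cells, 6 were in library 1 and 3 in library 2, and of the 8 cycling monocyte-like cells 5 were in library 1. A further 12 cycling immune cells tied between classes and 3 held under 2 markers.

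Some cycling cells of the monocyte-like and neutrophil-like classes carried genes of the marrow stages. The 8 cycling monocyte-like cells carried Elane and Prtn3, proteases that are made in the bone marrow stages of myeloid cells, at 860 and 669 CPM, against 3.23 and 7.11 CPM in 264 non-cycling ones. Those counts came from 4 and 5 cells. Ly6c2, a marker of classical monocytes, was at 2441 CPM in the cycling cells and at 682 CPM in the others, and Ace, a marker of patrolling monocytes, had no UMI in the cycling cells against 347 CPM. Ly6c2 and Ace are markers of the monocyte class and Mpo, Elane and Prtn3 of the progenitor class. Their levels in each class were thus set in part by the choice of cells. Of the 8 cycling monocyte-like cells, 3 lay within 1 marker of another class. A single immune cell, which was cycling, had the progenitor class, with 5 UMIs of Mpo, 38 of Elane and 61 of Prtn3. The 67 cycling macrophage-like cells had no UMI of Mpo or Elane and Prtn3 at 63.9 CPM, against 44.6 CPM in non-cycling ones, and the 9 cycling dendritic-like cells had no UMI of the 3 genes.

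Of the 3 cycling neutrophil-like cells, 2 held Camp, Ngp and Ltf, granule genes that neutrophils make before they leave the marrow. Camp was at 41835 CPM over the 3 cells and at 2814 CPM over 388 non-cycling ones. In the 8 cycling B cell-like cells Ighd, the IgD chain of naive B cells, was at 59.9 CPM against 541 CPM, while Cd79a, part of the B cell receptor, was at 1642 CPM against 2039 CPM. In the 4 cycling NK cell-like cells Gzma, a killing protease, was at 161 CPM against 4716 CPM in 129 non-cycling ones, with Ncr1, an NK receptor, at 739 CPM against 862 CPM. Of these 4 cells 3 lay within 1 marker of another class. Ighd and Cd79a are markers of the B cell class and Gzma and Ncr1 of the NK cell class, so their levels were set in part by the choice of cells. Each of these values rests on fewer than 10 cycling cells.

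Gene levels were compared in the lineages with enough cells, 112 cycling against 18666 non-cycling endothelial cells and 67 cycling against 851 non-cycling macrophage-like cells. Levels are UMIs summed over the cells of a group, in CPM. A gene was tested where at least 10 UMIs were expected in the cycling cells, and it is called higher or lower at a ratio of 2-fold or more. Of 8124 genes tested in endothelial cells, 11.2% were called higher and 6.95% lower in cycling cells. Of 7621 in macrophage-like cells it was 7.24% and 2.1%. The median ratio over all tested genes was 1.01 in endothelial cells and 1.05 in macrophage-like cells. The lists contain none of the 4 rule genes, but all cell cycle genes move with the rule, so what follows on them is a description of the cells it chose. Expected UMIs were taken from the mean of both groups' levels, so a gene nearly absent from non-cycling cells could pass only through the cycling cells where it was high. For such genes a call was fixed by the filter, and the counts and medians of the cell cycle lists support nothing further.

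Genes of every stage from DNA copying to cell separation were found in both lineages. In endothelial cells 20 of 22 origin licensing and fork genes passed the filter and were higher, with a median ratio of 9.70, as did 7 of 8 nucleotide synthesis genes (median 11.6), 13 of 13 histone and chromatin genes (20.7) and 30 of 30 spindle, kinetochore and cytokinesis genes (176). In macrophage-like cells the same numbers of genes passed and were higher, with medians of 6.08, 10.2, 9.53 and 57.6. Mcm5, a subunit of the MCM helicase, was at 87.0, 45.4, 62.0 and 75.1 CPM in cycling endothelial cells of libraries 1 to 4, against 4.88, 5.37, 5.04 and 4.63 CPM in non-cycling ones (ratio 13, 9.20 to 18.0). The groups did not overlap over the libraries. Cenpf, a kinetochore protein made from S phase to mitosis, was at 747, 862, 891 and 796 CPM in cycling endothelial cells against 2.02, 1.84, 1.14 and 1.68 CPM in non-cycling ones (ratio 514, 410 to 650). In macrophage-like cells Cenpf was at 660, 197, 405 and 0 CPM in cycling cells, the last over 4 cells, against 1.71, 2.59, 3.87 and 1.54 CPM in non-cycling ones.

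**Figure D3:**
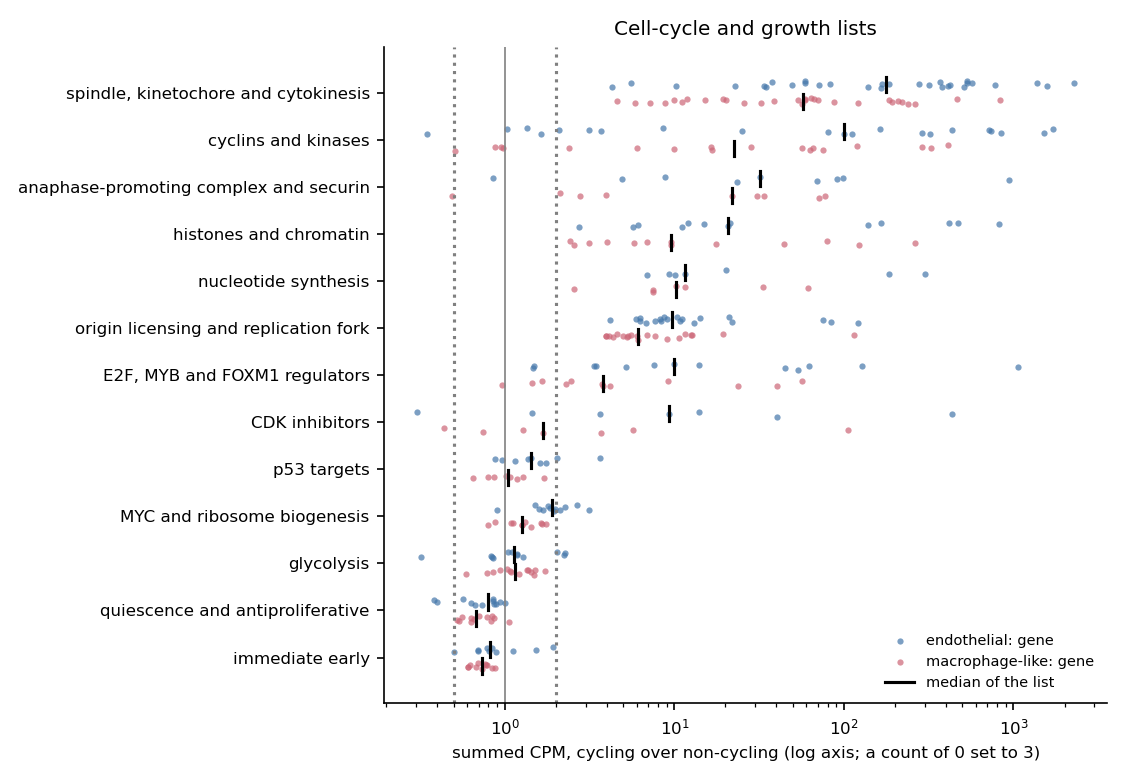
Ratio of summed CPM, cycling over non-cycling cells (log axis), for the tested genes of the cell cycle and growth lists in endothelial and macrophage-like cells; each point is a gene and each bar the list's median. Spindle genes have the highest medians, 176 in endothelial and 57.6 in macrophage-like cells, while the immediate early lists have medians of 0.818 and 0.734.

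The regulators of the programme followed. Of 13 E2F, MYB and FOXM1 genes tested in endothelial cells 11 were higher, among them E2f1 (ratio 45.1, 30.8 to 65.5), Mybl2, the MYB member of cycling cells (62.4, 34.6 to 111), and Foxm1 (53.8, 34.0 to 84.0). In macrophage-like cells it was 9 of 12, with Foxm1 at a ratio of 23.9 (10.5 to 60.8). Of 21 cyclins and kinases tested in endothelial cells 17 were higher. Ccna2, the cyclin of S phase and G2, was at 239, 149, 196 and 15 CPM in cycling endothelial cells of libraries 1 to 4, against 0.168, 0.241, 0.336 and 0.201 CPM in non-cycling ones. Ccnb1 was at 94.7 CPM against 0.0554 CPM, which was 3 UMIs (ratio 1710, 559 to 8513), and it passed the filter through the cycling cells alone.

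The D-type cyclins, which carry growth signals into the cycle, behaved differently from the mitotic ones. Ccnd1 was at 418 CPM in cycling and 405 CPM in non-cycling endothelial cells (ratio 1.03, 0.914 to 1.16), and Ccnd2 was lower, at 69.2 against 199 CPM (0.347, 0.254 to 0.463). Ccnd2 was at 109, 71.3, 22.8 and 195 CPM in cycling cells of libraries 1 to 4, against 206, 211, 180 and 204 CPM, so library 4 hardly differed. Pttg1, securin, which holds sister chromatids together until anaphase, was the exception in the list of the anaphase-promoting complex, with a ratio of 0.854 in endothelial cells and of 0.486 (0.273 to 0.805) in macrophage-like cells, where the other 8 genes tested were higher.

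Some inhibitors of the cycle were higher as well. In endothelial cells 5 of 7 CDK inhibitors tested were called higher, but Cdkn2a and Cdkn3 were nearly absent from non-cycling cells. Both passed the filter through the cycling cells, so their calls were fixed by it and the count supports nothing further. Cdkn1a (p21), which p53 induces, was at 276, 409, 391 and 150 CPM in cycling cells of libraries 1 to 4 and at 146, 78.1, 83.7 and 81.9 CPM in non-cycling ones (ratio 3.64, 3.17 to 4.15). The cycling cells were above the non-cycling ones in each library. Cdkn2a, which encodes p16 and p19ARF, was at 36.3, 45.4, 58.7 and 30.0 CPM in cycling cells against 0.926, 0.802, 1.88 and 1.07 CPM (ratio 40.1, 25.4 to 62.1), on 32 UMIs in 20 of the 112 cells. Cdkn2c (p18) had a ratio of 14 and Cdkn3, a phosphatase of CDKs that peaks in mitosis, a ratio of 434.

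Cdkn1c (p57), an inhibitor of resting cells, was lower, at 82.7 against 272 CPM (0.304, 0.229 to 0.396), and Cdkn1b (p27) had a ratio of 1.44. Against non-cycling cells of the same UMI range the ratios were 4.08 for Cdkn1a, 42.6 for Cdkn2a and 0.368 for Cdkn1c. In macrophage-like cells Cdkn2c, Cdkn2d and Cdkn3 were higher, while Cdkn1a was at 544 CPM in cycling and 424 CPM in non-cycling cells (ratio 1.28, 1.15 to 1.43). Non-cycling macrophage-like cells thus carried more of it than non-cycling endothelial cells, which were at 95.5 CPM. Of 9 p53 targets tested in endothelial cells 2 were higher, Cdkn1a itself and the nuclease Aen (ratio 2.03), and the median was 1.43. Their sum was 777 CPM in cycling cells against 414 CPM in non-cycling ones and was higher in each library, with Cdkn1a in the sum. In macrophage-like cells 0 of 8 were called (median 1.05).

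Growth lists are given here beside the shares over all tested genes. Of all genes tested in endothelial cells, 11.2% were higher and 6.95% lower, and in macrophage-like cells 7.24% and 2.1%. Of 12 MYC and ribosome biogenesis genes tested in endothelial cells 4 were higher, among them Nop58, a part of the particles that modify ribosomal RNA (188 against 60.2 CPM; ratio 3.12, 2.59 to 3.73), and 2 against cells of the same UMI range. In macrophage-like cells it was 0 of 11. Of 12 glycolysis genes 3 were higher in cycling endothelial cells and 1, Aldoa, was lower (60.1 against 188 CPM; ratio 0.319, 0.228 to 0.435). Against cells of the same UMI range none was higher and 1 was lower, where 873 of all 8187 genes tested were higher and 640 lower. No immediate early gene was called in either lineage, of 10 and 11 tested, with medians of 0.818 and 0.734. Of 12 quiescence and antiproliferative genes 2 were lower in endothelial cells, Gas6 (0.380) and Ndrg1 (0.399), and 0 in macrophage-like cells, where the median was 0.679.

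As a share of all UMIs, endothelial markers in general and many genes of specialised vessel types were lower in cycling endothelial cells. Cycling cells held more UMIs each, with a median of 5712.5 against 2469, so a lower CPM need not mean fewer UMIs per cell. The 6 endothelial markers had 2116 UMIs over 112 cycling cells and 254579 UMIs over 18666 non-cycling ones. The 6 endothelial markers summed to 3181 CPM in cycling cells against 4700 CPM in non-cycling ones, and to 3061, 2983, 3442 and 2687 CPM in cycling cells of libraries 1 to 4 against 4447, 4409, 5285 and 4563 CPM. They were lower in each library. Cdh5, the cadherin of endothelial junctions, was at 704 CPM in cycling cells against 919 CPM in non-cycling ones, and Pecam1, an adhesion molecule between endothelial cells, was at 791 against 982 CPM. Both are criteria of the lineage, so their levels, and with them the sum of the 6 markers, were set in part by the choice of cells. That sum was not taken without them or in the same UMI range. Of 8 venous and endocardial genes tested 4 were called lower and none higher (median 0.530), and of 9 arterial genes 7 were lower and none higher (0.401). Of 12 capillary genes 7 were lower and none higher (0.480), but against non-cycling cells of the same UMI range it was 1 of 12 (0.670). In the same UMI range 5 of 8 venous and endocardial genes (0.303) and 5 of 9 arterial genes (0.489) were lower. Over all 8187 genes tested in that range, 640 were lower and the median was 1.02.

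Npr3, a natriuretic peptide receptor that marks endocardium, was at 72.5, 45.4, 104 and 495 CPM in cycling cells of libraries 1 to 4 and at 491, 268, 239 and 584 CPM in non-cycling ones (ratio 0.311, 0.247 to 0.386). Against cells of the same UMI range the ratio was 0.173 (0.137 to 0.215). Vwf, the clotting factor of large vessels, veins and endocardium, was at 152, 32.4, 45.7 and 165 CPM in cycling cells against 337, 271, 212 and 435 CPM (0.244, 0.181 to 0.321, and 0.153 in the same UMI range). Both genes were lower in each library, though Npr3 only slightly in library 4. Nr2f2, the transcription factor of vein identity, was at 46.6 against 97.0 CPM (0.481), and Cytl1, a secreted protein of the endocardial marker list, was at 27.1 against 145 CPM (0.187). Summed over the venous and endocardial list, library 4 went the other way, at 2237 CPM over its 12 cycling cells against 1886 CPM in its non-cycling cells, and Vcam1 made up 976 CPM of the cycling sum.

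Among arterial genes, Gja4, a connexin of arteries, was at 6.01 CPM in cycling cells against 34.2 CPM in non-cycling ones (ratio 0.176, 0.0479 to 0.452), on 4 UMIs. Hey1, a Notch target of arteries, was at 15 against 44.1 CPM (0.341), and Sox17, a factor of arterial fate, was at 27.1 against 74.2 CPM (0.365). The arterial count depended on library 3, which held 50 of the 112 cycling cells. Without it 6 genes could be tested and 2 were lower, beside 483 of all 6053 genes tested. The sum of the arterial list was lower in cycling cells of each library. It was at 609, 246, 183 and 255 CPM in libraries 1 to 4 against 739, 531, 650 and 723 CPM. Among capillary genes, Car4, a carbonic anhydrase of capillaries, was at 36.1 against 109 CPM (0.330) and at a ratio of 0.584 in the same UMI range. Cd36, a fatty acid transporter, was at 1242 against 2806 CPM (0.443, and 0.662 in the same UMI range). Gpihbp1, which carries lipoprotein lipase across capillaries, was at 588 against 899 CPM, and in the same UMI range its ratio was 0.925 (0.834 to 1.02).

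**Figure D4:**
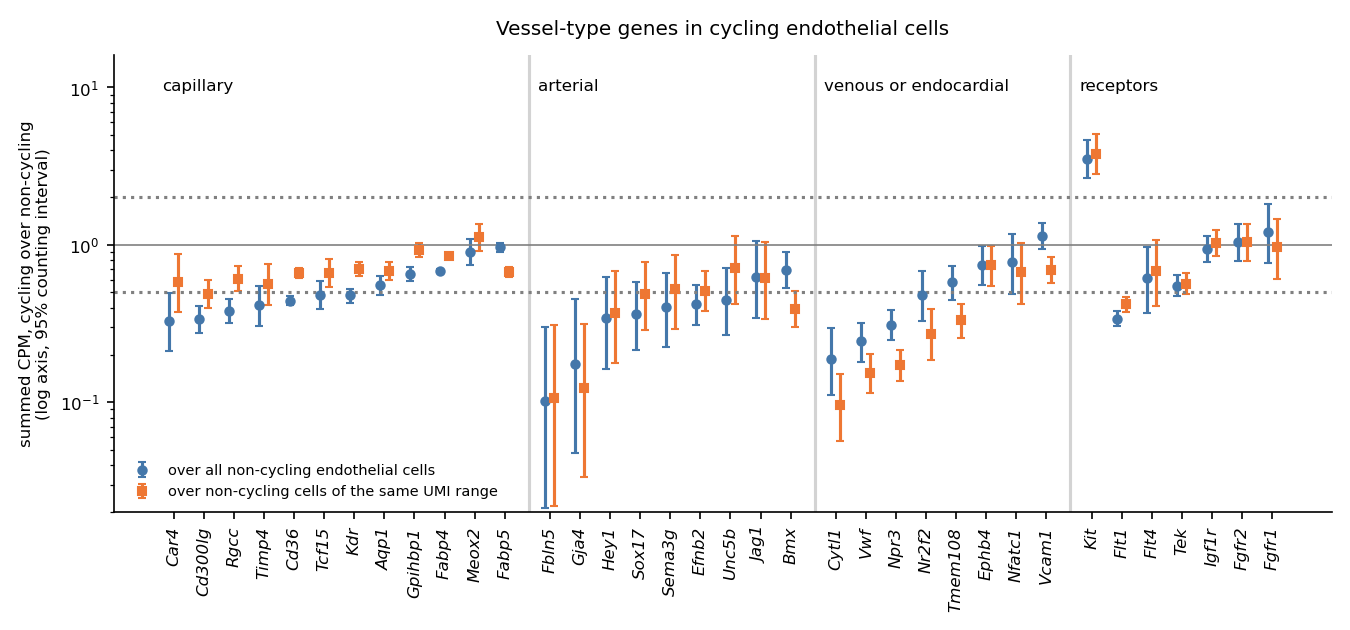
Ratio of summed CPM, cycling over non-cycling endothelial cells (log axis), for genes of vessel types, against all non-cycling cells and against those of the same UMI range, with 95% counting intervals. Npr3 stands at 0.311 and 0.173 and Vwf at 0.244 and 0.153, while Gpihbp1 stands at 0.654 and 0.925.

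Receptors and signals of growing vessels did not move together. Flt1, a decoy receptor for VEGF, was at 479, 499, 509 and 450 CPM in cycling cells of libraries 1 to 4, against 1392, 1378, 1602 and 1423 CPM (ratio 0.340, 0.304 to 0.379, and 0.419 in the same UMI range). The groups did not overlap over the libraries. Kdr, the main VEGF receptor, was at 574 against 1204 CPM (0.477), and at 0.702 in the same UMI range. Apln, a ligand of tip cells, was higher over all cells, at 55.6 against 13.7 CPM (4.07, 2.84 to 5.66), but only in libraries 2 and 3: it was at 7.25, 84.3, 75 and 0 CPM in cycling cells of libraries 1 to 4, against 8.67, 23.5, 17.1 and 6.04 CPM. Plvap, the diaphragm protein of endothelial pores, was at 21.0 against 103 CPM (0.205).

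Kit, the receptor for stem cell factor, was at 72.5, 77.8, 108 and 15 CPM in cycling cells and at 20.03, 38.0, 23.8 and 15.1 CPM in non-cycling ones (ratio 3.53, 2.65 to 4.62, and 3.79 in the same UMI range). It was higher in libraries 1 to 3 and equal in library 4, with UMIs in 32 of the 112 cells. Kit also marks blood progenitors, and 3 of the 6 progenitor markers had no UMI in the cycling endothelial cells. The 6 markers, Cd34 among them, summed to 449 CPM in cycling cells (375 to 467 CPM over the libraries) against 352 CPM in non-cycling ones.

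Outside the lists, the 10 genes highest in cycling endothelial cells were again genes of division, such as Pbk, a mitotic kinase (168 CPM, with no UMI in non-cycling cells, so at least 3040-fold higher, and tested only through the cycling cells), and Neil3, a DNA repair glycosylase of cycling cells (262 against 0.129 CPM). The 10 lowest included 3 binding proteins of insulin-like growth factors. Igfbp5 was at 7.25, 19.5, 6.52 and 360 CPM in cycling cells of libraries 1 to 4, against 490, 311, 202 and 411 CPM (ratio 0.130, 0.0874 to 0.185). It was low in libraries 1 to 3 and near its non-cycling level in library 4. Igfbp3 was at 6.01 against 61.7 CPM (0.0975, 0.0265 to 0.25), and Igfbp6 at 10.5 against 72.5 CPM. Nr3c2, the mineralocorticoid receptor, was at 19.5 against 160 CPM (0.122).

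RNA of other cell types was part of the endothelial group. No cell held Ptprc or Pdgfra UMIs, since the criteria bar them. The 6 macrophage markers summed to 410 CPM in cycling cells (14.5, 45.4, 450 and 1892 CPM in libraries 1 to 4) against 40.8 CPM in non-cycling ones, and none of the 6 was at 0. The 6 B cell markers summed to 146 CPM (32.4 to 472 CPM over the libraries) against 36.1 CPM, and none was at 0. Pan-leukocyte markers were at 81.2 against 14.0 CPM. Pericyte markers were at 85.7 against 65.7 CPM, but in library 4 at 736 CPM over its 12 cycling cells against 61.8 CPM, and in the other libraries they were lower in cycling cells. Library 4 is also where Igfbp5 and the venous and endocardial sum did not follow the other libraries. C1qa, a complement gene of macrophages, came from 7 of the 112 cells, and 9 of the 112 held no Cdh5. The 5 cardiomyocyte markers were at 85.7 against 96.4 CPM, and the 5 erythroid markers at 31.6 against 2218 CPM, of which 38 non-cycling cells held 98.2%. The lists were therefore read again in the 94 cycling and 16206 non-cycling cells with a Cdh5 UMI and under 2 markers of every immune class but the progenitor one, a restriction chosen after these values were seen. There 7 of 12 capillary genes (median 0.482), 7 of 8 arterial genes (0.368) and 4 of 8 venous and endocardial genes were lower. Over all 7452 genes tested in these cells, 520 were lower. The part of other cell types in the remaining differences was not tested.

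In macrophage-like cells few genes of the macrophage lists passed the 2-fold ratio. None of 10 resident macrophage genes tested was called in either direction (median 0.730), and neither was any of 7 MHC class II genes (0.643). Over all 7621 genes tested 7.24% were higher and 2.1% lower, so lists this short would hold few calls or none at those shares. Lyve1, a hyaluronan receptor of resident macrophages, was at 17.8, 40.5, 367 and 20.8 CPM in cycling cells of libraries 1 to 4 and at 264, 265, 341 and 230 CPM in non-cycling ones. It was low in every library but library 3, which held 37 of the 67 cells. Folr2, a folate receptor of resident macrophages, had 26.8, 69.4, 394 and 167 CPM in cycling cells against 310, 303, 411 and 167 CPM. Without library 3, 4 of the 10 resident genes were called lower (median 0.514), beside 112 of all 5002 genes tested. Timd4, a receptor for dead cells, was at 62.5 against 88.2 CPM (ratio 0.709, 0.508 to 0.968).

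MHC class II genes present antigen to T cells. Their summed level was 24026, 3231, 11823 and 10303 CPM in cycling macrophage-like cells of libraries 1 to 4 and 19863, 15054, 18782 and 21306 CPM in non-cycling ones. It was higher in cycling cells in library 1 and lower in the other libraries, most of all in library 2. In the same UMI range the list's median was 0.811. Ms4a7, a membrane protein of monocyte-derived macrophages, was called lower, at 152, 127, 162 and 229 CPM against 328, 225, 500 and 292 CPM (ratio 0.402, 0.329 to 0.488), and lay lower in each library. Ccr2 was at 107 against 116 CPM (0.921, 0.714 to 1.17), and the reporter tdTomato at 98.0 against 113 CPM (0.868, 0.666 to 1.12). By library tdTomato was at 161, 156, 35.1 and 229 CPM in cycling cells and at 173, 165, 63.5 and 163 CPM in non-cycling ones, so the libraries differed more than the states. Fn1, fibronectin, a matrix protein that monocyte-derived macrophages make, was at 17.8, 3994, 51.3 and 5516 CPM in cycling cells against 257, 2763, 105 and 2412 CPM in non-cycling ones. It was high in libraries 2 and 4 in both states, with the cycling cells above the non-cycling ones there and below them in libraries 1 and 3.

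**Figure D5:**
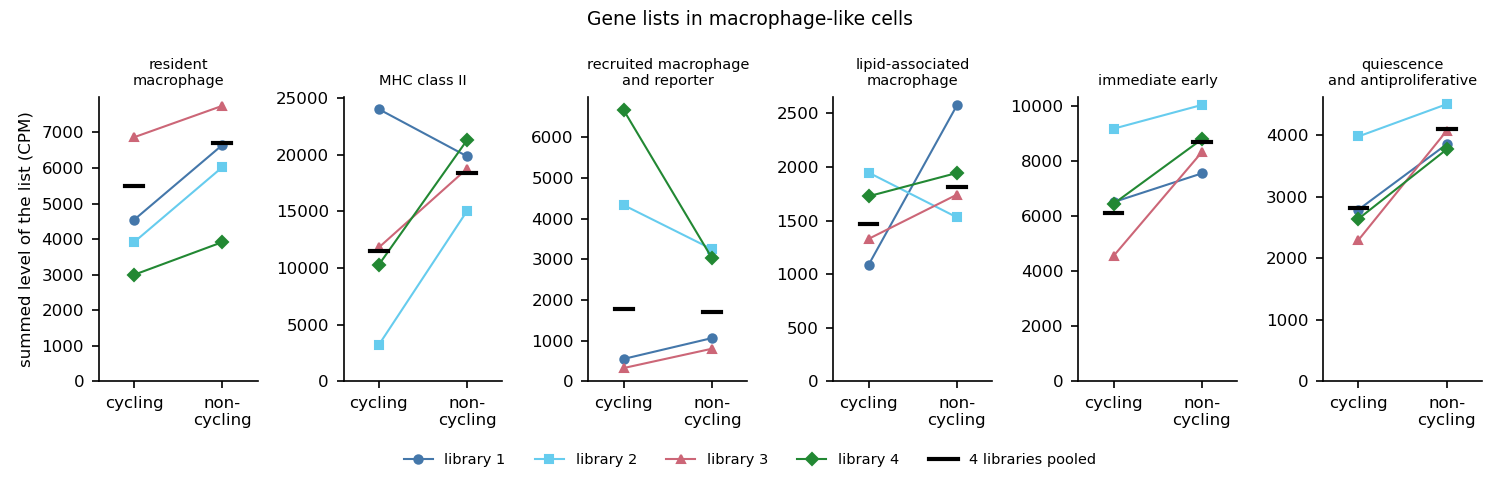
Summed CPM of macrophage gene lists in cycling and non-cycling macrophage-like cells, with a point for each library; library 4 holds 4 cycling cells. MHC class II reaches 24026 CPM in cycling cells of library 1 and 3231 CPM in those of library 2, while the non-cycling values span 15054 to 21306 CPM.

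Outside the lists, Hmox1, the enzyme that breaks down haem, was at 41.2 CPM in cycling macrophage-like cells against 136 CPM (ratio 0.303, 0.202 to 0.440), and Cd63, a protein of lysosomes, was at 178 against 430 CPM (0.413, 0.342 to 0.495). Both were lower in each library. Genes outside the lists were named only if their direction was the same in every library with 5 or more cycling cells. Agreement over libraries 1 to 3 was thus fixed by that choice, and only library 4, with 4 cycling cells, was free to differ. Nppa, a peptide hormone of cardiomyocytes, was at 2.84 against 82.8 CPM (0.0343, 0.00414 to 0.125), but 657 CPM in the non-cycling cells of library 1 set that level, with 4.31 to 13.8 CPM in the other libraries. The cytotoxic genes Nkg7 and Ccl5 were called higher on 1 and 3 cycling cells, nearly all of their counts in library 3, where the 6 T cell markers summed to 102 CPM in cycling cells. Over all libraries those markers were at 55.4 CPM in cycling against 19.5 CPM in non-cycling cells, and their part in the result was not tested. In the 57 cycling and 767 non-cycling cells with no Pecam1 and no Cdh5 UMI, a restriction also chosen afterwards, 503 genes were higher and 155 lower, against 552 and 160 in all macrophage-like cells.

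The 3 cycling fibroblasts can be described singly. They held 20380, 13049 and 23029 UMIs, rule sums of 110, 6 and 9, and 65, 193 and 173 UMIs of Dcn, a matrix proteoglycan, in libraries 1, 2 and 2. All 3 thus held another fibroblast gene beside Pdgfra. Only 939 genes could be tested on 3 cells, of which 12.9% were higher and 6.28% lower. Lum, a collagen-binding proteoglycan, was at 744 against 1675 CPM in 6408 non-cycling fibroblasts (ratio 0.444, 0.320 to 0.600), and Pi16, a marker of resting adventitial fibroblasts, was at 159 against 1089 CPM (0.146, 0.0669 to 0.278). The cell of library 1 had no Pi16, and the 2 of library 2 had 249 CPM.

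Cells that met more than 1 criterion had a cycling share of 1.71% (43 of 2521, 1.24 to 2.29%). Of 1334 cells with endothelial and immune criteria 30 were cycling (2.25%, 1.52 to 3.19%). By markers 10 of these were macrophage-like, 9 of them with Cdh5, and 7 were B cell-like, 5 of them without Cdh5. Pecam1 is also made by leukocytes, and 13 of the 30 held no Cdh5. Of 989 cells with endothelial and fibroblast criteria 8 were cycling, and all 8 held Dcn, at 2 to 129 UMIs. Among the 4 cycling cells with all 3 criteria, the deepest held 53091 UMIs with 357 of Mpo, 502 of Elane and 405 of Prtn3. Whether they were doublets was not tested beyond the doublet caller.

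Cycling cells were also sorted by the list of which they held more UMIs. Of the 112 cycling endothelial cells, 14 held more UMIs of the 30 replication genes than of the 39 mitosis genes (12.5%, 7.01 to 20.1%). It was 13 of the 67 macrophage-like cells (19.4%, 10.8 to 30.9%). The intervals overlap. These shares depend on the lists and on the rule: the mitosis list is the longer one, and it was already above the replication list in cells with a rule sum of 0, at 734 against 319 CPM. Cells in early S phase can lack all 4 rule genes, and 108 cells with a rule sum of 0 held 10 or more replication UMIs, 42 of them endothelial, 30 immune and 7 fibroblasts. At 20 or more replication UMIs it was 20 cells. Such cells stayed in the non-cycling group.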

How the data were processed

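The authors deposited 1 table of counts, whole UMIs per gene and cell barcode, for which the submitters' processing notes name Cell Ranger 7.1.0 and the build mm10. The sources used here do not say how libraries were joined. Libraries were made with 10x Genomics 3′ v3.1 chemistry, per the labels. The 4 barcode suffixes were read as libraries, with 31955157 to 45834980 UMIs in 9168 to 10473 barcodes, and 821 of 39731 barcodes failed the filters. Since suffixes and samples are not linked by any label, stroke was not compared with control.

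UMIs were summed per group and divided by the group's total (CPM). Intervals are 95%, exact binomial for shares and exact conditional binomial for ratios, and cover counting error only. A count of 0 was read as up to 3 UMIs over the group. Ratios of at least 2-fold were called among genes with at least 10 expected UMIs. There were 28 gene lists with 344 genes. Any list gene could be named, and beside them, per lineage, the 10 highest and 10 lowest other genes with at least 20 expected UMIs and the same direction in every library with 5 or more cycling cells. Doublets were scored with Scrublet in scanpy 1.11.5 but kept. In library 3 its own threshold called 0 cells, and the other libraries' median, 0.208, was used. The ratio script was tested on simulated counts. The rule, members and lists were chosen with earlier results of these data known.

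Alternatives were other rule thresholds, filters and depths, per-cell means, Scrublet calls left out and each library left out. Promoters are from RefSeq. Tools were numpy 2.4.6, scipy 1.17.1 and pandas 2.3.3.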

Additional observations from a re-analysis of the deposited data

Results flagged for a closer look

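In each comparison the value of each library was set against the other libraries, over 57 quantities, and a value was singled out where its gap to the nearest library took up more of the whole range than Dixon's critical value for 4 values. Chance flags about 1 in 20, and 4 of the 57 were found. The summed MYC and ribosome biogenesis list had a ratio of cycling over non-cycling cells of 3.28 in endothelial cells of library 1 and of 1.48 in macrophage-like cells of library 1, the highest of the libraries in both. The immediate early list had its highest ratio, 1.29, in endothelial cells of library 3. The fibrillar matrix list had its lowest ratio, 0.704, in endothelial cells of library 1.

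Of 222 list genes tested in both lineages, 2 lay past 2-fold on opposite sides. Rgcc, a regulator of cell cycle progression that is abundant in capillaries, had a ratio of 0.382 in endothelial and of 2.18 in macrophage-like cells. Vwf had a ratio of 0.244 in endothelial and of 2.80 in macrophage-like cells, where it rested on 21 UMIs in cycling cells. The difference between the lineages was not tested.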

How the results depend on the processing

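Cells are not tied to samples, so no value here speaks of the spread between animals, and cycling cells were deeper than the others. No paired analysis was possible because the libraries carry no sample or replicate label and no test was run. Of 88 comparisons of a share or a count of genes with an alternative, 65 stayed near the reported value and 23 moved, and the cause of the moves was not tested unless the alternative itself sets it. The endothelial share was 0.448% at a rule sum of 5 or more and 0.243% after thinning, and 0.455 to 0.734% with each library left out. The immune share was 4.94% at a rule sum of 2 or more, 2.32% at 5 or more and 0.849% after thinning, and 2.83 to 3.91% with each library left out. Filters change how many genes are tested. With a filter at 1 expected UMI, 1968 genes were higher and 1484 lower in endothelial cells, 1565 and 811 in macrophage-like cells, and 1649 and 691 in fibroblasts. With a filter at 20 it was 605 and 353, 318 and 61, and 39 and 32. With each library left out it was 667 to 906 and 483 to 595 in endothelial cells, 261 to 555 and 112 to 162 in macrophage-like cells, and 42 to 121 and 29 to 60 in fibroblasts. Library 3 gave the low end in macrophage-like cells, with 261 higher and 112 lower genes without it, of which 29 were among the 160 called lower with it. Of 323 genes followed, 2 turned round: Runx1 in endothelial cells, at a ratio of 0.719 in the restricted cells chosen after seeing the data, and Spp1 in macrophage-like cells, at 1.04 by the mean of per-cell values.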

Other observations

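RNA of some fibroblast and matrix genes was also at lower levels in the cycling cells of the endothelial group, beside the vessel genes of the report. Of the 12 genes of the resting fibroblast list 4 could be tested, and all 4 were called lower (Gsn, Dcn, Lum and Pi16). The 6 fibroblast markers summed to 316 CPM in cycling endothelial cells against 726 CPM in non-cycling ones, and Dcn was at 247 against 592 CPM. Dcn UMIs were found in 25 of 112 cycling and in 4533 of 18666 non-cycling cells. By library the markers were at 297, 305, 222 and 811 CPM in cycling cells against 1152, 732, 266 and 840 CPM in non-cycling ones, so most of the difference came from libraries 1 and 2. Of 8 fibrillar matrix genes 3 were called lower, Col3a1, Bgn and Eln. Over all 8124 genes tested in endothelial cells, 565 (6.95%) were called lower. How much of this RNA came from other cells was not tested, and no values for the same UMI range are given.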
